A study of Homo sapiens with 12 samples.

Results

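The genes described here are those that the authors listed against control in all 3 of their tables, 1 each for lactic acidosis, lactosis and acidosis. There were 1042 such genes among the 5308 listed in at least 1 table (19.6%), made up of 24.4% of the lactic acidosis table, 33.8% of the lactosis table and 60.5% of the acidosis table. Members were then placed by the values of single libraries. In 548 members (52.6%) all 9 treated libraries lay above all 3 control libraries, in 239 (22.9%) all 9 lay below, and in the other 255 (24.5%) treated and control values overlapped. Heat shock chaperones, DNA replication factors, nucleotide synthesis enzymes and tubulins stood on the high side in treated cells, and amino acid stress targets of ATF4 and lysosomal proteins on the low side. Of these, the nucleotide enzymes, the tubulins and the broader lysosomal set were picked after the values were seen. The authors chose the genes on these same libraries, so treated against control is described here and nothing is read from its tests. Over all genes of a table, 3 treated libraries lay clear above the 3 controls in 58.2% and clear below in 32% for lactic acidosis, in 52.1% and 31.9% for lactosis, and in 50.2% and 25.3% for acidosis. A limma fit of the 9 treated against the 3 control libraries called 670 of the 1042 higher (64.3%) and 356 lower (34.2%). The choice of genes largely fixed these counts, and only members had values in all 12 libraries to be tested.

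The cells were KKU-213A, a human line from cholangiocarcinoma, a cancer of the bile ducts, which the labels give as mixed papillary and non-papillary. Lactic acidosis cells grew with 25 mM L-lactate and 25 mM of the buffer HEPES at pH 6.7, after stepwise adaptation, lactosis cells with 25 mM L-lactate at pH 7.4, acidosis cells with 25 mM HEPES at pH 6.5, and control cells in low-glucose DMEM. Treated cells had passed at least 5 passages in their medium, no passages or HEPES are given for control, and all groups share 1 cell line and 1 set of 3 control libraries. Polyadenylated RNA of 3 libraries a group was sequenced, and nothing in the labels shows whether the libraries of a group were separate cultures, so the p-values measure a spread between libraries that may be technical. Time in culture, buffer and medium therefore cannot be told apart from a treatment. In RNA from bulk cells, fewer cells that express a gene and less RNA of it per cell cannot be told apart.

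Values are the deposited expression values, scaled for gene length and library. Differences are on the log2(value + 1) scale, which understates the change of low genes. Read depth is unknown from the tables. Over the 548 members above control, the median SD of log2 values was 0.079 in lactic acidosis, 0.078 in lactosis, 0.078 in acidosis and 0.28 in control. Over the 239 below, it was 0.111, 0.137, 0.139 and 0.155 in the same order. Over the 255 members that overlapped, the SD in control was 0.269, close to that of members above. Control 1 was the lowest by a wide margin in the members above, at a median of 0.96 below the mean of the 9 treated libraries, against 0.61 for control 2 and 0.43 for control 3. Control 3 was the control closest to the treated libraries in 480 of the 548 (87.6%). After rescaling by library weights fitted to the authors' group means, the 3 medians were -0.69, -0.65 and -0.50. The SD in control was then 0.146 in members above and 0.166 in members below, so control was no longer wider above than below. Control stayed wider than the treated groups. Their rescaled SDs in lactic acidosis, lactosis and acidosis were 0.075, 0.077 and 0.09 above, and 0.096, 0.11 and 0.101 below. With rescaled values 666 members lay above and 360 below, 545 and 238 of them shared with the counts on deposited values. Without control 1 the counts were 548 above and 362 below. Of the marker genes of cholangiocytes, hepatocytes, immune cells, fibroblasts, endothelium and muscle, 0 were listed in all 3 tables, and absence from a table does not show that a gene was unchanged. Of 10 cholangiocyte markers 5 were listed in at least 1 table (KRT19, SOX9, SPP1, ANXA4 and MUC1), and of 12 markers of skeletal and heart muscle all 12 were. The summed value of the 7 muscle markers in the lactosis table was 0.49, 55.99 and 0.53 in lactosis 1, 2 and 3, against 0.88, 0.66 and 1.5 in control. For the 9 in the lactic acidosis table it was 18.72, 55.45 and 17.0 in lactic acidosis 1, 2 and 3, against 38.42, 49.85 and 57.8 in control, and 0 were in the acidosis table. Lactosis 2 and lactic acidosis 2 thus stood apart from the other libraries of their groups in these markers. Without lactosis 2 the members numbered 564 above and 240 below, and without lactic acidosis 2 they numbered 548 and 249.

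**Figure D1:**
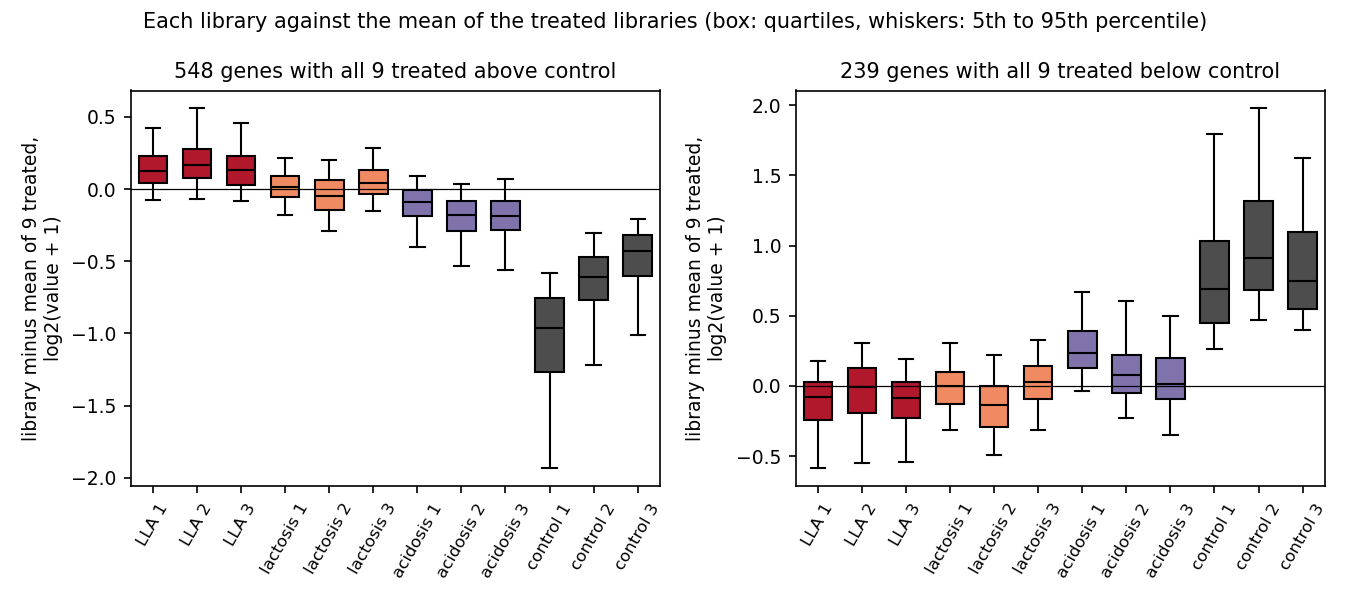
Each library minus the mean of the 9 treated libraries on the log2(value + 1) scale, for the 548 members above control (left) and the 239 below (right). Boxes are quartiles with the median, whiskers the 5th to 95th percentile of genes, and LLA is lactic acidosis. Control 1, 2 and 3 have medians of -0.96, -0.61 and -0.43 on the left and of 0.69, 0.91 and 0.75 on the right.

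Several of the member groups belong to well known programmes. Cells that hold misfolded proteins release the factor HSF1, which binds heat shock elements in promoters and raises chaperones, the proteins that fold and refold other proteins. Cells short of amino acids, or with stress in the endoplasmic reticulum, make the factor ATF4, which acts at C/EBP-ATF response elements on genes of amino acid uptake, amino acid synthesis and cell death. DNA replication genes are raised together as cells pass into S phase, largely through E2F factors.

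Promoter sequences of the first 2 programmes are shown because their members moved together. The motifs were searched on both strands in the 250 bases before each RefSeq gene start (GRCh38.p14), and matches were counted for each motif on its own, whether or not they overlapped others. The core of a pair of heat shock units, GAANNTTC, was in 5 of 14 matched promoters of heat shock chaperones above control (35.7%). It was in 4.69% of members above, 3.16% of members below, 3.53% of genes in at least 1 table and 5.85% of all 27305 promoters. In the next 4 sequences the capitals mark that core, which starts at -106 in HSPA1A, at -230 and -50 in HSPA8, at -198 in DNAJA1 and at -205, -60 and -50 in CHORDC1, counted from the gene start. They lie at chr6:31815293-31815542 on the plus strand for HSPA1A, at chr11:123062137-123062386 on the minus strand for HSPA8, at chr9:33025023-33025272 on the plus strand for DNAJA1 and at chr11:90223050-90223299 on the minus strand for CHORDC1.
HSPA1A: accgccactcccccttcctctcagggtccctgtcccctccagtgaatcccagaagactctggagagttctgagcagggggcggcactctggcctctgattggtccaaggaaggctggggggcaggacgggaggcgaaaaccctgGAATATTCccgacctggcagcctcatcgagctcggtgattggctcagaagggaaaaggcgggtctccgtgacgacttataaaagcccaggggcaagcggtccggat
HSPA8: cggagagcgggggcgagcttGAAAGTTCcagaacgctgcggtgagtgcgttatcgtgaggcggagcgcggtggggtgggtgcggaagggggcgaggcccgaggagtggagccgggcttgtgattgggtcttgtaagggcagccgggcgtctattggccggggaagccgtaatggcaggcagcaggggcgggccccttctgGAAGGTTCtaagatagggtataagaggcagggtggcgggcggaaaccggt
DNAJA1: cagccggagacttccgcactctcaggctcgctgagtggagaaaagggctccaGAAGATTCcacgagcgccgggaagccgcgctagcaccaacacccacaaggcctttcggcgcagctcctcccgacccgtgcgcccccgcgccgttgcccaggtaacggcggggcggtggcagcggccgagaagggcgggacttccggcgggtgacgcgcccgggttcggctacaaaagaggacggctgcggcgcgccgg
CHORDC1: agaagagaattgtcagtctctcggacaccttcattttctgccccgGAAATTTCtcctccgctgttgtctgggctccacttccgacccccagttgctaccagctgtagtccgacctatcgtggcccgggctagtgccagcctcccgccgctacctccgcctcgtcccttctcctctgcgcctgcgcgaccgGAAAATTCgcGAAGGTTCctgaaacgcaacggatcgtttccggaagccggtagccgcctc

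The C/EBP-ATF element, TGATGNAA, was in 2 of 7 matched promoters of the ATF4 targets below control (28.6%). It was in 4.21% of members below, 1.07% of members above, 1.4% of genes in at least 1 table and 3.19% of all promoters. It starts at -209 in CHAC1, on the other strand, and at -191 in ATF3, and is in capitals in the next pair of sequences. They lie at chr15:40953221-40953470 for CHAC1 and at chr1:212565157-212565406 for ATF3, both on the plus strand.
CHAC1: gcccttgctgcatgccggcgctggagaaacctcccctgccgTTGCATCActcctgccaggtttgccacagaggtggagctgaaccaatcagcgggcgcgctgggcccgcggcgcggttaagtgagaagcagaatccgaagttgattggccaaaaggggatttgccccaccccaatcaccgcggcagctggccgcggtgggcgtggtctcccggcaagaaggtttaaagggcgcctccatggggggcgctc
ATF3: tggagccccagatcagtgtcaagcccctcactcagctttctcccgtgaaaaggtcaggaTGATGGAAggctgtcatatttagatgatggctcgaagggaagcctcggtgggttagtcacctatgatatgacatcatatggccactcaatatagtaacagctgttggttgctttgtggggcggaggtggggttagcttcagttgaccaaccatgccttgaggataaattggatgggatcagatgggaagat
The heat shock core was added to the search after the values were seen, and a match in letters is not a bound site. The E-box CACGTG was in 15.3% of matched promoters of members below and in 8.32% of those above. It was in 8.6% of promoters of genes in at least 1 table and in 6.49% of all promoters. The NF-Y box CCAAT was in 34.7% below and 37.7% above, against 35.9% of genes in at least 1 table and 33% of all. The AP-1 site TGANTCA was in 8.42% below and 4.05% above, against 4.36% of genes in at least 1 table and 6.6% of all. Members above were thus near the genes in at least 1 table for the E-box and the AP-1 site.

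Among the gene lists, leaving aside the families picked after the values were seen, heat shock chaperones had the largest share of their listed genes in all 3 tables. Of 29 genes on the list, 23 were in at least 1 table and 16 in all 3. Of these 16, 15 lay above control in all 9 treated libraries, where 52.6% of all members did, 0 lay below, and HSPA4 overlapped. The medians of the 16 were 1.19 under lactic acidosis, 1.03 under lactosis and 0.99 under acidosis, against 0.58, 0.45 and 0.35 over all 1042 members. The share of the list's listed genes that was in all 3 tables was 69.6%, against 19.6% of all listed genes. In 14 of the 15, control 3 was the control nearest to the treated libraries, as in most members above.

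HSPA1A, the stress-inducible HSP70 (chromosome 6, 31815464 to 31817946, plus strand), had values of 379, 344 and 376 in lactic acidosis, 543, 485 and 521 in lactosis, 377, 388 and 372 in acidosis, and 51.8, 73.3 and 115 in control. All treated libraries stood clear of control, and lactosis stood above the other treated groups. The differences from control were 2.25 under lactic acidosis, 2.75 under lactosis and 2.30 under acidosis. The authors' deposited tables gave log2 fold changes of 2.12, 2.69 and 2.27 for HSPA1A. Between treatments, which the choice of genes did not use, HSPA1A was lower in lactic acidosis than in lactosis by a log2 difference of -0.49 ± 0.08 (SE, limma adjusted p = 0.0025), and higher in lactosis than in acidosis by 0.44 ± 0.07 (adjusted p = 0.0041), in 3 of 3 libraries each. In 1 fit of all 12 libraries, where the spread of the controls enters, the adjusted p were 0.134 and 0.158. Its neighbour HSPA1B shares 70% of sampled sequence windows with HSPA1A, so the split of reads between them is uncertain.

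HSPA1B had means of 264 ± 10.6 in lactic acidosis, 428 ± 15.6 in lactosis, 288 ± 18.6 in acidosis and 78.9 ± 24.8 in control (SD, n = 3 each). It was lower in lactic acidosis than in lactosis by -0.69 ± 0.08 (SE, limma adjusted p = 0.00021), and higher in lactosis than in acidosis by 0.57 ± 0.08 (adjusted p = 0.0019), and both calls held in the fit of 12 libraries.

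HSPA8, the constitutive HSP70 (chromosome 11, minus strand), had 1912, 2137 and 1947 in lactic acidosis, 2347, 2184 and 2558 in lactosis, 1736, 1639 and 1649 in acidosis, and 516, 840.1 and 1120.0 in control. Its cochaperone DNAJA1 had 349, 336 and 319.6 in lactic acidosis, 326, 299 and 341 in lactosis, 289, 275 and 290.0 in acidosis, and 93.3, 113 and 175 in control. For both genes the highest control was control 3, and it still lay well under the lowest treated library. HSPA2, an HSP70 known from male germ cells, had treated values of 13.0 to 17.8, against 2.32, 3.46 and 5.42 in control.

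Partners of the HSP90 machine followed. HSP90AA1, the inducible HSP90, differed from control by 1.13 under lactic acidosis, 0.94 under lactosis and 1.08 under acidosis. The HSP90 cochaperone CHORDC1 differed by 1.52, 1.29 and 1.25 in the same order, and FKBP5, which acts on steroid receptors with HSP90, by 1.30, 1.11 and 0.94. HSPH1, a nucleotide exchange factor of HSP70, differed by 1.25, 1.26 and 1.03. STIP1, AHSA1, FKBP4, CACYBP and HSPE1 also lay above, with differences from 0.52 to 1.00 over the 3 treatments. DNAJB1, a main HSP70 cochaperone of the heat shock response, had means of 165 ± 2.09 in lactic acidosis, 169.7 ± 6.70 in lactosis, 113 ± 4.95 in acidosis and 94.7 ± 9.54 in control (SD, n = 3 each). DNAJB1 was higher in lactic acidosis than in acidosis by 0.54 ± 0.07 (SE, limma adjusted p = 0.00026) and in lactosis than in acidosis by 0.58 ± 0.07 (adjusted p = 0.0015), with all 3 libraries on 1 side each time.

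**Figure D2:**
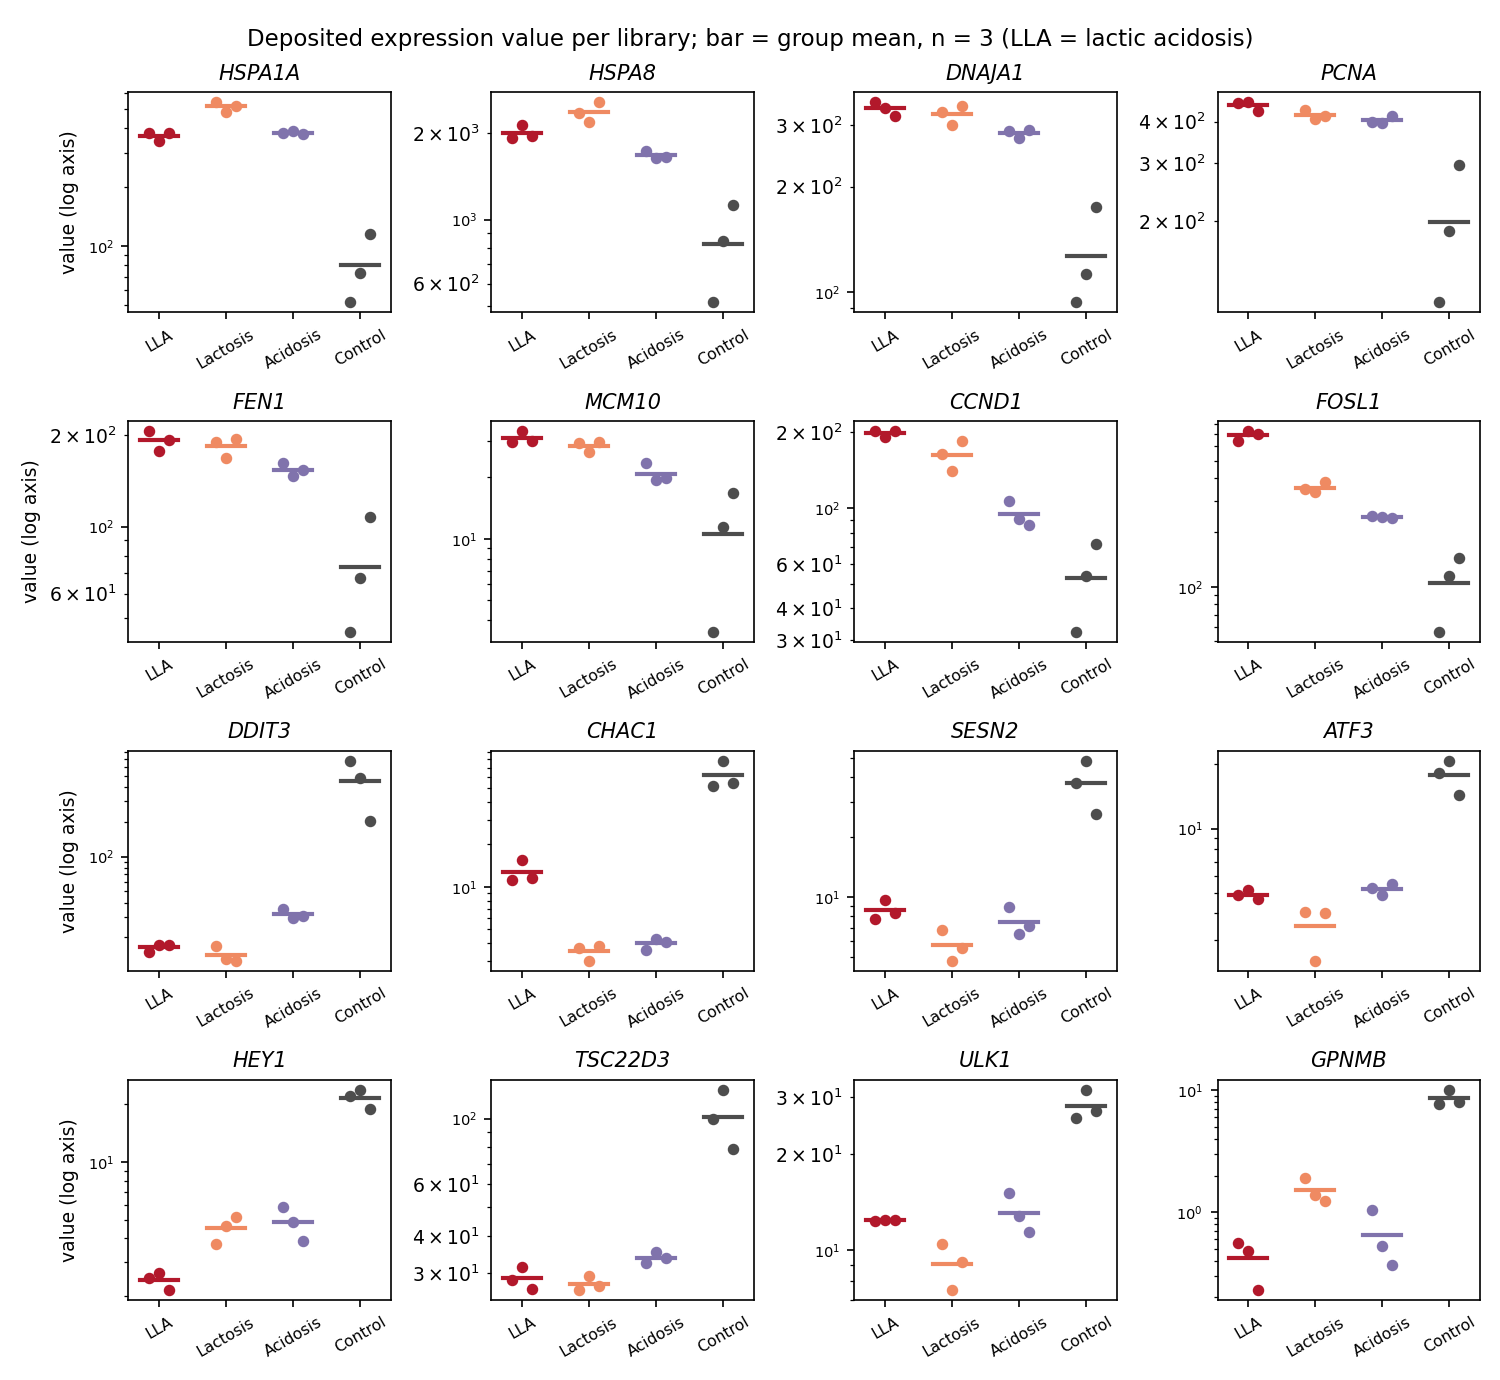
Deposited expression value of 16 members in every library, on a log axis that differs between panels, with the group mean as a bar (n = 3 libraries; LLA is lactic acidosis). In the upper 2 rows all treated points lie above all control points, as for HSPA1A with 344 to 543 treated and 51.8 to 115 in control. In the lower 2 rows they all lie below, as for DDIT3 with 12.5 to 35.0 treated and 203 to 678 in control.

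DNA replication factors came next by that share. Of 45 genes on the list, 26 were in at least 1 table and 17 in all 3. Of the 17, 15 lay above control, where 52.6% of all members did, 0 lay below, and CDC6 and TIPIN overlapped. Their medians were 1.00, 0.99 and 0.79 in lactic acidosis, lactosis and acidosis. The members cover loading of the helicase (ORC6), the helicase itself (CDC45 and the 4 GINS subunits GINS1, GINS2, GINS3 and GINS4), its stabiliser MCM10, polymerase subunits (POLA2, POLE2), the sliding clamp PCNA and its loaders RFC2 and DSCC1, the flap nuclease FEN1, the single-strand binder RPA2 and the checkpoint mediator CLSPN. In all 15, control 3 was the control nearest to the treated libraries.

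PCNA (chromosome 20, 5114953 to 5126626, minus strand) had 454, 459 and 431 in lactic acidosis, 433, 408 and 416 in lactosis, 399, 396 and 417 in acidosis, and 114, 187 and 297 in control. The treated libraries lay within a narrow band, and the 3 controls were spread far more widely below it. The mean difference of treated from control was 1.19, and 0.84 without control 1. Between treatments PCNA passed no test, with differences of 0.10 ± 0.08 for lactic acidosis against lactosis (SE, limma adjusted p = 0.38), 0.15 ± 0.07 for lactic acidosis against acidosis (adjusted p = 0.10) and 0.05 ± 0.07 for lactosis against acidosis (adjusted p = 0.62).

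FEN1 had 206, 178 and 194 in lactic acidosis, 190.1, 169 and 195 in lactosis, 162, 147 and 154 in acidosis, and 45.0, 67.6 and 107 in control. MCM10 had means of 31.3 ± 2.06 in lactic acidosis, 28.6 ± 1.85 in lactosis, 20.9 ± 2.19 in acidosis and 10.6 ± 6.65 in control (SD, n = 3 each). The 3 controls of MCM10 were far apart, with 3.52, 11.5 and 16.7 in control 1, 2 and 3, and all lay below the treated libraries. CDC45, which differed least in the group, was apart from control by 0.42, 0.58 and 0.45 in lactic acidosis, lactosis and acidosis.

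Genes around replication lay on the same side. Of 33 enzymes of nucleotide synthesis and salvage, a family set picked after values were seen, 11 were in all 3 tables. Where 52.6% of all members lay above control and 22.9% below, 10 of these 11 lay above and 1 below. They include PRPS1, which makes the activated ribose of all nucleotides, the pyrimidine enzymes UMPS, CTPS1 and UCK2, and the purine enzymes IMPDH1, HPRT1 and PNP. PNP had treated values of 67.6 to 97.2, against 31.0, 44.3 and 48.3 in control. The member below was RRM2B, the ribonucleotide reductase subunit that p53 induces, with differences of -0.53 under lactic acidosis, -0.64 under lactosis and -0.34 under acidosis. On the list of cell cycle control and p53 targets, 5 of 7 members lay above, near the 52.6% of all members given the small list. They were CCND1, CCND3, CCNE1, CDK2 and FAS, while TP53INP1 lay below and the cell cycle inhibitor CDKN1B overlapped. The recombination factors RAD54L and XRCC3 lay above, by 0.88, 0.75 and 0.71 for RAD54L and 0.81, 0.62 and 0.63 for XRCC3 in lactic acidosis, lactosis and acidosis, and 52.5% of the windows of XRCC3 are shared with other genes.

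CCND1, the cyclin that opens G1, had 201, 192 and 202 in lactic acidosis, 164, 139.9 and 184 in lactosis, 107, 90.3 and 86.0 in acidosis, and 32.4, 54.0 and 71.9 in control. Values were highest in lactic acidosis, and no treated library reached into control. CCND1 was higher in lactic acidosis than in acidosis by 1.07 ± 0.09 (SE, limma adjusted p = 2.6e-05) and higher in lactosis than in acidosis by 0.77 ± 0.12 (adjusted p = 0.0038), in 3 of 3 libraries each. TP53INP1, a p53 target of autophagy and cell death, had 0.73, 0.57 and 0.84 in lactic acidosis, 1.16, 0.93 and 1.08 in lactosis, 3.05, 2.15 and 2.24 in acidosis, and 3.79, 4.59 and 5.09 in control. It was lower in lactic acidosis than in acidosis by -1.02 ± 0.11 (SE, limma adjusted p = 9.5e-05) and lower in lactosis than in acidosis by -0.75 ± 0.11 (adjusted p = 0.0025).

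The ATF4 targets had the lowest medians of the lists with at least 4 members. Of 39 genes on the list, 18 were in at least 1 table and 8 in all 3. Where 22.9% of all members lay below control, all 8 did so in every treated library. Their medians were -1.79 under lactic acidosis, -2.28 under lactosis and -1.92 under acidosis. The 8 are the transcription factors DDIT3, ATF3 and JDP2, the glutathione-degrading enzyme CHAC1, the mTORC1 inhibitors SESN2 and DDIT4, the neutral amino acid carrier SLC1A4 and INHBE, a subunit of activin E. On the list of endoplasmic reticulum stress and folding, 3 of 27 genes were in at least 1 table and 0 in all 3. FICD, an enzyme that modifies the chaperone BiP and was named for its size of difference, lay below control by -1.36, -1.17 and -1.19. Of the tRNA synthetases, 1 gene was in all 3 tables, and it overlapped.

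DDIT3, also called CHOP (chromosome 12, 57516588 to 57521737, minus strand), had 15.1, 17.0 and 17.0 in lactic acidosis, 16.6, 12.9 and 12.5 in lactosis, 35.0, 29.2 and 30.4 in acidosis, and 678, 481 and 203 in control. The controls differed from each other by more than the treated groups did, and the lowest control still lay far above every treated library. The differences from control were -4.55 under lactic acidosis, -4.76 under lactosis and -3.64 under acidosis, the largest among the 239 members below. DDIT3 was lower in lactic acidosis than in acidosis by -0.90 ± 0.09 (SE, limma adjusted p = 6.1e-05). It overlaps the gene MARS, and 25% of its sequence windows are shared.

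CHAC1 (chromosome 15, 40952962 to 40956519, plus strand) had 11.1, 15.6 and 11.5 in lactic acidosis, 3.71, 2.99 and 3.81 in lactosis, 3.59, 4.29 and 4.05 in acidosis, and 51.6, 78.6 and 54.5 in control. Here lactic acidosis was the treated group closest to control. CHAC1 was higher in lactic acidosis than in lactosis by 1.60 ± 0.13 (SE, limma adjusted p = 2e-05) and higher than in acidosis by 1.45 ± 0.12 (adjusted p = 2.4e-05), in 3 of 3 libraries each.

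SESN2 had treated values of 4.77 to 9.70, against 37.4, 48.6 and 26.2 in control. ATF3 had treated values of 2.40 to 5.48, against 18.3, 20.8 and 14.4 in control. INHBE lay under 1.5 in all 9 treated libraries, against 11.2, 7.94 and 3.47 in control. The controls did not share an order across these genes, with control 1 highest for DDIT3 and INHBE and control 2 highest for CHAC1, SESN2 and ATF3. DDIT4 was the least changed, with means of 766 ± 11.1 in lactic acidosis, 683 ± 78.6 in lactosis, 1070.2 ± 87.0 in acidosis and 1562 ± 52.9 in control (SD, n = 3 each). Acidosis lay nearest to control for DDIT4, which was lower in lactic acidosis than in acidosis by -0.48 ± 0.08 (SE, limma adjusted p = 0.0011) and lower in lactosis than in acidosis by -0.65 ± 0.10 (adjusted p = 0.0037).

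**Figure D3:**
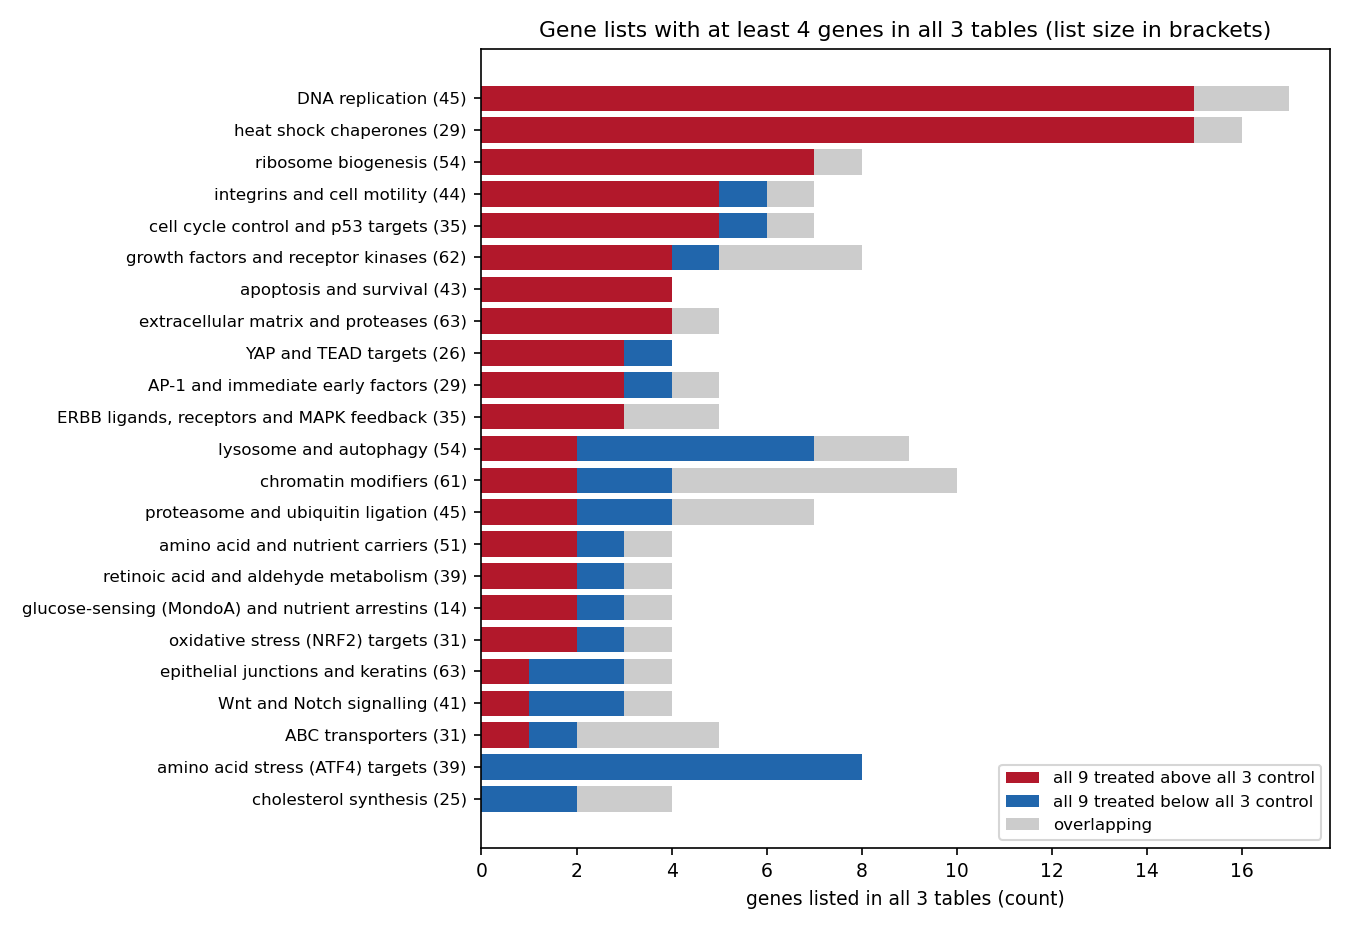
Number of genes of each list that were listed in all 3 tables, for the lists with at least 4 such genes, with the size of the list in brackets. Red bars count genes with all 9 treated libraries above all 3 controls, blue bars genes with all below and grey bars genes that overlap. Of the DNA replication genes 15 of 17 and of the heat shock chaperones 15 of 16 are red, and all 8 ATF4 targets are blue.

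Further groups on the high side belong to growth and RNA production. Of 8 ribosome biogenesis members 7 lay above control, with medians of 0.72, 0.64 and 0.37, among them LYAR, NOP16, UTP3, WDR12 and DDX10. The medians of all members were 0.58, 0.45 and 0.35, and the 8 were 21.1% of the list's genes in at least 1 table, which is near the share of all genes. Families picked after the values were seen included 6 of 6 tubulins, 6 of 6 mitochondrial import proteins, 6 of 6 mitochondrial ribosomal proteins, 4 of 4 small nuclear ribonucleoproteins and 5 of 7 SR splicing factors above control, with 0 below in each, where 52.6% of all members lay above. The 6 mitochondrial ribosomal proteins were 25% of the 24 in at least 1 table, near the 19.6% of all genes. SRSF2, an SR protein that selects exons, had treated values of 345 to 463, against 141, 185 and 229 in control. TUBB6, a class V beta tubulin, differed from control by 1.64 under lactic acidosis, 1.22 under lactosis and 0.84 under acidosis. Of the subunits of the chaperonin that folds tubulin and actin, 2 of 5 lay above and 3 overlapped. With rescaled values all 5 lay above, and without control 1 the count above stayed at 2.

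Signalling genes were also among the members above control. FOSL1, an AP-1 subunit that acts downstream of ERK (chromosome 11, minus strand), had 642, 726 and 705 in lactic acidosis, 349.8, 334 and 379 in lactosis, 247, 245 and 241 in acidosis, and 56.5, 115 and 144 in control. The 4 groups did not overlap. FOSL1 was higher in lactic acidosis than in lactosis by 0.96 ± 0.09 (SE, limma adjusted p = 5.1e-05) and higher than in acidosis by 1.50 ± 0.08 (adjusted p = 1.8e-06). The ERK feedback genes DUSP4, DUSP6 and SPRY4 lay above as well. TGFA, an EGFR ligand, and ERRFI1 on the same list overlapped. In the authors' deposited tables ERRFI1 had log2 fold changes of 0.6, -0.41 and -0.74 in lactic acidosis, lactosis and acidosis. Thus 3 of 5 members of the list lay above, near the 52.6% of all members. Members were 25% of the list's genes in at least 1 table, near the 19.6% of all genes.

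DUSP4, a phosphatase of ERK, had 242, 254 and 244 in lactic acidosis, 96.3, 79.7 and 92.3 in lactosis, 80.2, 69.7 and 64.4 in acidosis, and 52.9, 50.8 and 56.3 in control. Lactic acidosis stood far above the other groups, and acidosis lay just above control. The differences of DUSP4 were 1.46 ± 0.09 for lactic acidosis against lactosis (SE, limma adjusted p = 4.1e-06) and 1.78 ± 0.09 for lactic acidosis against acidosis (adjusted p = 1.8e-06).

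AKAP12, a scaffold for protein kinases A and C (chromosome 6, 151239999 to 151358557, plus strand), showed the widest spread between treatments. Its values were 454, 493 and 463 in lactic acidosis, 159, 139.7 and 207 in lactosis, 46.9, 32.5 and 31.1 in acidosis, and 4.78, 16.4 and 22.4 in control. AKAP12 was higher in lactic acidosis than in lactosis by 1.49 ± 0.13 (SE, limma adjusted p = 3.7e-05), higher in lactic acidosis than in acidosis by 3.66 ± 0.14 (adjusted p = 6.7e-07) and higher in lactosis than in acidosis by 2.17 ± 0.19 (adjusted p = 0.00028). Of 5 matrix and protease members, 4 lay above control, among them AGRN, ADAM8 and the urokinase receptor PLAUR, and of 7 integrin and motility members 5 lay above, where 52.6% of all members did. Members were 20% and 21.9% of the genes of these lists in at least 1 table, near the 19.6% of all genes.

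ALDH1A3, which makes retinoic acid from retinal, had 807, 855 and 801 in lactic acidosis, 441, 396 and 477 in lactosis, 414, 365 and 355 in acidosis, and 88.3, 178 and 249.8 in control. CYP26A1, which clears retinoic acid, lay below control at values near 0, with differences of -1.48, -1.51 and -1.02. ALDH1A3 was higher in lactic acidosis than in lactosis by 0.91 ± 0.09 (SE, limma adjusted p = 7.8e-05) and higher than in acidosis by 1.12 ± 0.08 (adjusted p = 9.5e-06).

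TXNIP and ARRDC4, which report on glucose and glycolytic intermediates through the factor MondoA, both lay above control. Of the 4 members on their list, which also holds nutrient genes, PIK3IP1 lay below and HBP1 overlapped. TXNIP, an arrestin that limits glucose uptake, had 14.7, 15.9 and 15.1 in lactic acidosis, 12.5, 9.45 and 12.2 in lactosis, 21.6, 19.96 and 19.6 in acidosis, and 2.42, 3.76 and 3.97 in control. Unlike most members above control, TXNIP was highest in acidosis. It was lower in lactic acidosis than in acidosis by -0.40 ± 0.07 (SE, limma adjusted p = 0.0019) and lower in lactosis than in acidosis by -0.79 ± 0.11 (adjusted p = 0.0020). ARRDC4, the related arrestin, lay above control by 1.32, 1.06 and 0.90, and PIK3IP1, an inhibitor of PI3 kinase on the same list, below by -1.89, -1.54 and -0.70.

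Lysosomal proteins lay mostly on the low side, where 22.9% of all members lay. On the list of lysosome and autophagy genes, 9 were in all 3 tables, with 5 below (the acid glucosidase GAA, the cholesterol exporter NPC1, the channel MCOLN3, the autophagy kinase ULK1 and the lysosomal nutrient regulator FLCN), 2 above (CTSC and GLA) and 2 that overlapped. In a broader set of 49 lysosomal hydrolases and membrane proteins, picked after the values were seen, 17 were in all 3 tables, with 11 below, 1 above and 5 that overlapped, and medians of -0.58, -0.49 and -0.48. With rescaled values, and without control 1, 16 of these 17 lay below. The vesicle sorting subunits VPS11, VPS37C and VPS39 lay below as well, by -0.35 to -0.69.

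NEU1, the lysosomal sialidase, had 30.5, 27.7 and 29.3 in lactic acidosis, 42.0, 40.6 and 39.7 in lactosis, 38.2, 40.2 and 42.1 in acidosis, and 71.3, 70.2 and 63.1 in control. It was lower in lactic acidosis than in lactosis by -0.47 ± 0.08 (SE, limma adjusted p = 0.0023) and lower than in acidosis by -0.45 ± 0.08 (adjusted p = 0.0012). ULK1 had treated values of 7.51 to 15.1, against 25.9, 31.7 and 27.2 in control. GPNMB, a lysosomal glycoprotein, had 0.23 to 1.91 in treated cells, against 7.78, 10.1 and 7.99 in control. For these 3 genes the controls were close to each other, and no treated library reached them.

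The Notch targets HEY1 and HES1 lay below control, and the receptor NOTCH3 overlapped. HEY1 had 2.50, 2.63 and 2.15 in lactic acidosis, 3.73, 4.66 and 5.20 in lactosis, 5.80, 4.89 and 3.87 in acidosis, and 22.2, 23.8 and 18.9 in control. HEY1 was lower in lactic acidosis than in lactosis by -0.68 ± 0.11 (SE, limma adjusted p = 0.0019) and lower than in acidosis by -0.76 ± 0.12 (adjusted p = 0.00081). TSC22D3, the glucocorticoid-induced leucine zipper, had treated values of 26.2 to 35.3, against 99.9, 125 and 78.9 in control. Of 4 cholesterol synthesis members, INSIG1 and STARD4 lay below, and FDFT1 and SREBF2 overlapped. With rescaled values, and without control 1, all 4 lay below. Of 19 ZNF zinc finger genes, a family picked after the values were seen, 9 lay below, 3 above and 7 overlapped. Among all members 22.9% lay below and 52.6% above. The 19 were 16.2% of the family's genes in at least 1 table, near the 19.6% of all genes. With rescaled values, and without control 1, 15 of the 19 lay below.

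Several lists had many genes in the tables and few in all 3, where 19.6% of all listed genes were in all 3. That share was 5% for antigen presentation, 5.56% for hypoxia-inducible factor targets and 11.1% for lactate, pH and bicarbonate transport. The lists are small, and their shares were not tested against that of all genes. Interferon-stimulated genes had 21 of 43 in at least 1 table and 0 in all 3, and the citrate cycle and respiratory chain had 11 of 40 and 0. Antigen presentation had 20 of 33 and 1, the transactivator NLRC5, which lay below control. Targets of hypoxia-inducible factor had 18 of 29 and 1, which was DDIT4. Of 48 genes of lactate, pH and bicarbonate transport, 18 were in at least 1 table and 2 in all 3. These were the acid-sensing channel ASIC1, above control by 0.85, 0.56 and 0.53, and the mitochondrial carbonic anhydrase CA5B, below by -0.41, -0.62 and -0.48.

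The distance from control was set out by treatment, as a description, since the members were listed by that distance. Among the 548 members above, the median difference was 0.81 under lactic acidosis, 0.69 under lactosis and 0.51 under acidosis, and lactic acidosis was the farthest from control in 399 (72.8%), lactosis in 125 (22.8%) and acidosis in 24 (4.38%). Among the 239 below, the medians were -0.84, -0.83 and -0.68, and the farthest group was lactic acidosis in 107 (44.8%), lactosis in 97 (40.6%) and acidosis in 35 (14.6%). The difference reached 1 in size in all 3 treatments for 25 members above and 38 below.

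**Figure D4:**
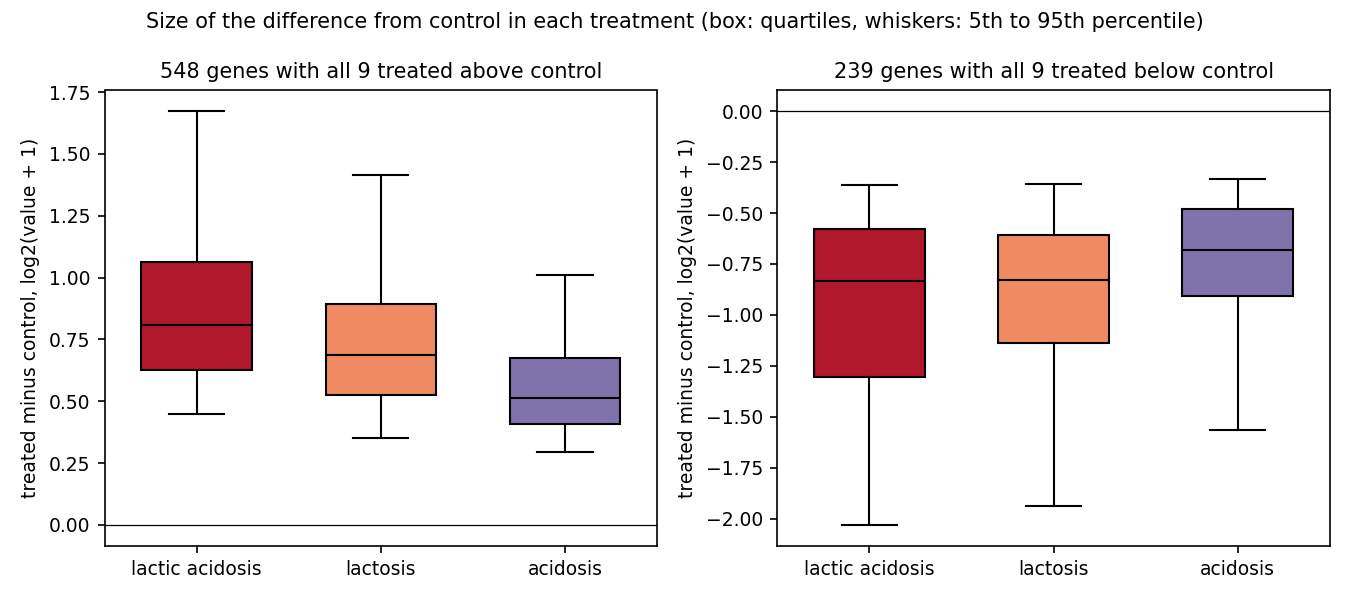
Difference of each treated group from control on the log2(value + 1) scale for the 548 members above (left) and the 239 below (right). Boxes are quartiles with the median and whiskers the 5th to 95th percentile of genes. Medians fall off in order on the left, with 0.81, 0.69 and 0.51, and are close for lactic acidosis and lactosis on the right, with -0.84, -0.83 and -0.68.

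The treated groups were then tested against each other by limma, with p-values adjusted over all genes listed in both tables of a pair. Of the 1042 members, 191 were higher and 62 lower in lactic acidosis than in lactosis, where 15.7% of all 2344 genes tested were higher and 4.78% lower. Against acidosis, 435 members were higher and 110 lower in lactic acidosis, where 38.7% of 1304 genes tested were higher and 10% lower. Lactosis had 186 members higher and 80 lower than acidosis, where 16.4% of 1173 genes tested were higher and 7.5% lower. Members are most of the genes tested in the comparisons with acidosis, so they were also set beside the genes tested that were not in all 3 tables. For lactic acidosis against lactosis 18.3% of members and 13.5% of those other genes were higher, and 5.95% and 3.84% lower. For lactic acidosis against acidosis 41.7% of members and 26.7% of 262 other genes were higher, and 10.6% and 8.02% lower. For lactosis against acidosis 17.9% of members and 4.58% of 131 other genes were higher, and 7.68% and 6.11% lower. These differences in share were not tested, and all 3 comparisons rest on genes that the authors listed against the same controls. Without lactic acidosis 2, lactic acidosis against lactosis gave 101 higher and 45 lower, and lactic acidosis against acidosis gave 350 and 113. Without lactosis 2, lactic acidosis against lactosis gave 150 higher and 71 lower, and lactosis against acidosis gave 191 and 62.

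The calls between treatments were then split by side of control. The sides were set with the same treated values, so this split is a description. Among members above control, 330 of 548 (60.2%) were higher in lactic acidosis than in acidosis and 2 were lower. Over all 1304 genes tested 38.7% were higher and 10% lower, and among overlapping members 36.9% and 7.84%. Among members below control, 88 of 239 (36.8%) were lower in lactic acidosis than in acidosis and 11 were higher. Lactosis against acidosis gave 150 higher (27.4%) and 7 lower among members above, and 58 lower (24.3%) and 5 higher among members below. Lactic acidosis against lactosis gave 123 higher (22.4%) and 10 lower above, and 42 lower (17.6%) and 20 higher below. Over all genes tested, 16.4% were higher and 7.5% lower in lactosis than in acidosis. For lactic acidosis against lactosis these shares were 15.7% and 4.78%. In 1 fit of 12 libraries, lactic acidosis against acidosis gave 246 higher and 89 lower over all members. With rescaled values the counts over all members were 177 higher and 107 lower for lactic acidosis against lactosis, 354 and 166 for lactic acidosis against acidosis, and 230 and 134 for lactosis against acidosis. The median difference of members moved by -0.08, -0.10 and -0.02 in these 3 comparisons.

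**Figure D5:**
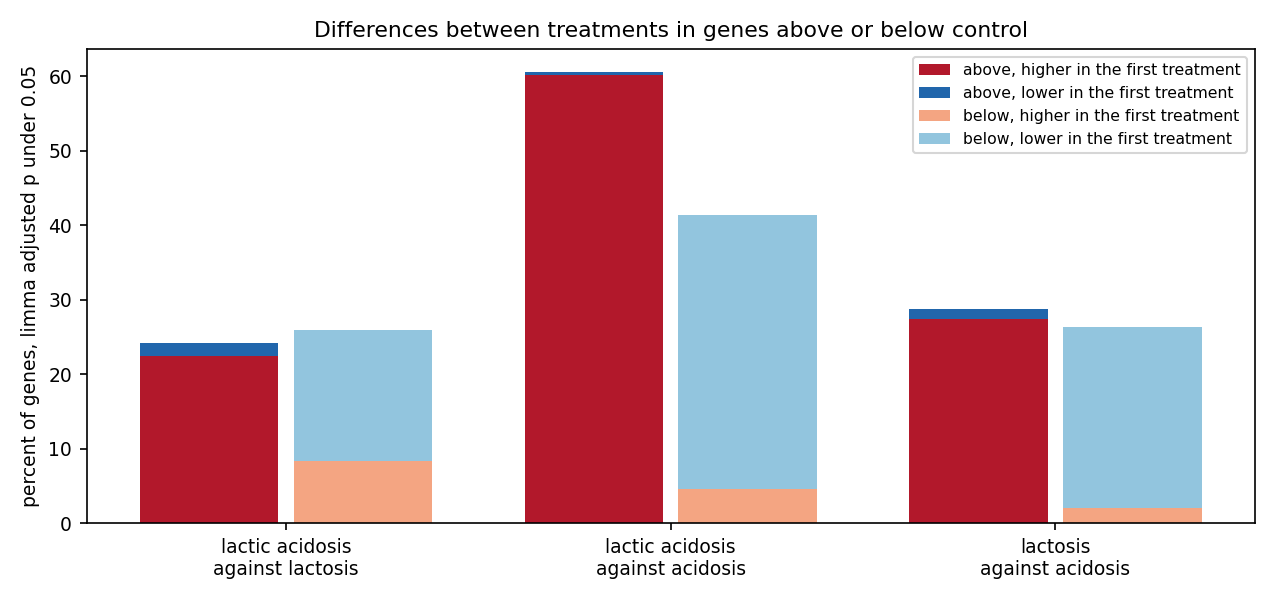
Percent of members above control (left bar of each pair) and below control (right bar) that differed between 2 treatments at a limma adjusted p under 0.05, with higher and lower calls stacked. Lactic acidosis against acidosis gives the tallest bars, with 60.2% of members above called higher and 36.8% of members below called lower in lactic acidosis. Over all genes tested in that comparison, 38.7% were called higher and 10% lower.

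In the authors' deposited tables the fold changes were higher in all 3 treatments for 670 members, lower in all 3 for 364 and mixed for 8, which are S100A9, PLAU, HIST1H2BK, ERRFI1, MTRNR2L8, PFKFB2, TIAL1 and CTSB. S100A9, a calcium-binding protein of inflamed tissue, had 9.26, 10.3 and 7.88 in lactic acidosis, 12.7, 21.0 and 14.1 in lactosis, 44.4, 38.5 and 36.4 in acidosis, and 23.8, 24.3 and 37.4 in control. PLAU, the urokinase protease, had 444, 485 and 446 in lactic acidosis, 176, 139.8 and 169 in lactosis, 231, 199.6 and 186 in acidosis, and 301, 342 and 334 in control. PLAU was thus on opposite sides of control in lactic acidosis and in the other treatments, while its receptor PLAUR was above control in all. HIST1H2BK, a histone gene that also yields polyadenylated RNA, lay above control only in lactosis, at 506, 476 and 476, against 223, 263 and 292 in control, and 52.5% of its windows are shared with other genes.

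The limit between groups was narrow for some members. Just inside on the high side were PRKRIR, with a lowest treated value of 67.4 against a highest control of 67.3, then CCDC117 and CDCA5, and just outside were ABCB10, ABCE1 and C12orf29. Just inside on the low side were NUDT4, EIF4B and TAX1BP1, and just outside NRIP1, PAPLN and ZNF33B. With a gap of at least 0.25 between the groups, 171 members lay above and 131 below.

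In length and base composition, which the choice did not use directly, members on the 2 sides were set beside all listed genes. The median length of the GENCODE 29 transcript was 3108 bases for members above and 3938 for members below, against 3765 for genes in at least 1 table, and the median GC content was 49.1%, 48.0% and 48.5%. Of members above 99.1% and of members below 95.7% were annotated as protein-coding, against 96.4% of genes in at least 1 table.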

How the data were processed

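The members and gene lists were chosen with earlier results of these data known, the 14 gene families after the values were seen, and list counts are descriptions. The authors deposited 3 tables with the column names of the EBSeq test, and per the submitters' processing notes reads were aligned with STAR to hg38; the counting tool is not given in the sources used here. The per-library values that the authors deposited are a signal scaled for gene length and library, and whether they are TPM or FPKM is not stated. The group means the authors deposited are a signal on the authors' size factors. The fold changes the authors deposited are a ratio of control over treated, turned round here. The posterior probabilities of equal and different expression that the authors deposited run between 0 and 1, and that of equal expression was under 0.05 in every listed gene. Control values were equal in the 3 tables, so libraries were compared across tables.

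Values were set on log2(value + 1) with no filter, and treated groups were compared by limma (3.58.1, R 4.3.3) with Benjamini-Hochberg adjustment over all genes listed in both tables. On simulated data with a log2 change of 1, limma recovered at least 97.5% of changed genes between treated groups. Most members differed by less. The median size of their difference was 0.17 for lactic acidosis against lactosis, 0.26 for lactic acidosis against acidosis and 0.16 for lactosis against acidosis. That recovery therefore does not show how complete the calls are at such sizes. For rescaled values, each library's weight came from a fit to the deposited group means. Genes are named by a rule on size of difference (20 a side, up to 5 a list and side, 3 at each edge, 5 a side for each pair of treatments); genes of families, and NEU1, SRSF2, TUBB6, PNP, TGFA, NOTCH3, FDFT1 and SREBF2, were named after their values were seen. A few genes that the rule picks are not reported here. Alternatives were pseudocounts of 0.1 and 5, a filter on low values, rescaled values, stricter probabilities, the replicate block, 1 fit of 12 libraries and leaving out each library. Positions are from GENCODE 29, shared sequence from 40 windows of 75 bases a gene, and promoters from RefSeq (GRCh38.p14). Scripts ran in Python 3.11.15 with matplotlib 3.10.9, scipy 1.17.1, numpy 2.4.6 and pandas 2.3.3.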

Additional observations from a re-analysis of the deposited data

Results flagged for a closer look

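Members whose difference from control was not the same in 2 treatments, by limma between the treated groups at an adjusted p under 0.05, are given as log2 differences, from the 5 highest and 5 lowest of each pair. In lactic acidosis against lactosis the highest were CHAC1 at 1.60, ANKRD33B at 1.53, PLAU at 1.51, AKAP12 at 1.49 and DUSP4 at 1.46. The lowest were KRT5, a basal keratin, at -1.93, RNF130, a ubiquitin ligase, at -1.51, HIST1H2BK at -1.45, INSIG1, which holds back cholesterol synthesis, at -1.22 and CXXC5 at -0.95.

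In lactic acidosis against acidosis the 5 highest included AKAP12 at 3.66, G0S2, an inhibitor of fat breakdown, at 2.00, INHBA, the subunit of activin A, at 1.99 and DUSP4 at 1.78. The lowest were S100A9 at -2.01, RCSD1 at -1.73, KRT5 at -1.61, CXXC5 at -1.38 and INSIG1 at -1.35.

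In lactosis against acidosis the highest were AKAP12 at 2.17, ZBED2 at 1.45, HIST1H2BK at 1.33, HS3ST1, a heparan sulfate sulfotransferase, at 1.25 and the growth factor FGF5 at 1.24. The lowest were RCSD1 at -2.01, CERS4, a ceramide synthase, at -1.56, S100A9 at -1.30, the nuclear receptor corepressor NRIP1 at -1.13 and DDIT3 at -1.12. AKAP12 was the member that led in both comparisons against acidosis. KRT5, CXXC5 and INSIG1 were among the 5 lowest in both comparisons of lactic acidosis.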

How the results depend on the processing

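A gap of at least 0.25 between the groups gave 171 members above and 131 below. Rescaled values gave 360 below, against 239 on the deposited scale, and leaving out control replicate 1 gave 362. Leaving out 1 library at a time gave 548 to 647 above and 239 to 362 below. In limma of treated against control it gave 657 to 671 higher and 320 to 367 lower. The choice of genes largely fixed the limma counts, so their narrow range is no support. Lactic acidosis against lactosis gave 101 to 252 higher (101 without lactic acidosis replicate 2, 113 without its replicate 3, 119 without lactosis replicate 1) and 37 to 71 lower (37 without lactic acidosis replicate 3 or lactosis replicate 1). Lactic acidosis against acidosis gave 321 to 530 higher and 94 to 115 lower. Lactosis against acidosis gave 81 to 251 higher (81 without acidosis replicate 2, 119 without its replicate 3, 99 and 118 without lactosis replicates 1 and 3) and 42 to 73 lower (42 without acidosis replicate 2, 49 without lactosis replicate 1). Rescaled values gave 107, 166 and 134 lower in these comparisons. In 1 fit of 12 libraries, which takes in the wider spread of control, lactic acidosis against lactosis gave 72 higher and 31 lower, lactic acidosis against acidosis 246 higher, and lactosis against acidosis 76 higher and 51 lower. In that fit the calls of HSPA1A (2 comparisons) and of FOSL1 in lactosis against acidosis (adjusted p = 0.147) were lost.

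The replicate numbers did not pair the libraries, with r over 0.1 in 3 of 18 same-numbered pairs. With the replicate block, treated against control gave 670 higher and 350 lower, and lactic acidosis against lactosis 128 and 48. For HIST1H2BK, treated against control was -0.02 with all libraries and -0.12 to 0.07 with 1 left out, 0.07 being without control replicate 3 (adjusted p = 0.437), and the cause was not tested. All other genes followed under the alternatives kept their direction in the comparisons looked at for them. For treated against control, genes named outside the rule, such as HSP90AA1, HSPH1 and TUBB6, were not followed. The same holds for genes picked only from a pair of treatments. Depth is unknown, so no counting error could be set.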
